A study of Mus musculus with 6 samples.

Results

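Genes of the cell cycle and of DNA replication were examined in bone marrow-derived macrophages of a macrophage-specific Dhps knockout and in control macrophages. The gene list held 53 members and was drawn up by function: 25 genes of S-phase entry and DNA replication (called G1/S replication genes), 6 regulators of the G1 phase, and 22 genes of chromosome condensation and mitosis (called G2/M mitotic genes). Of these, 50 were among the 10551 genes of the count table, 24, 6 and 20 in the order given. Cdc6, Plk1 and Cdc20 were not analysed here. All 6 libraries came from mice of the C57BL/6J strain. By its title the series concerns the role of Dhps in the inflammatory state of macrophages. Per the labels, 3 libraries (CONT_1 to CONT_3) carried the genotype "control" and 3 (KO_1 to KO_3) the genotype "Macrophage specific knockout (Dhps_delta_Myel)". Dhps encodes deoxyhypusine synthase, the enzyme that begins the conversion of a lysine of eIF5A, a translation factor, to hypusine. The labels give no age, Cre driver, growth factor or stimulus, and they do not say whether the control genotype carries floxed alleles or whether libraries of a group came from separate mice, so that a p-value reflects only how far these samples differ, which could be technical.

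A cell prepares for division in G1, when D cyclins with Cdk4 and Cdk6 begin to inactivate the retinoblastoma protein and release E2F factors, which switch on the genes of DNA replication. The helicase made of the Mcm proteins is loaded on origins by Cdc6 and Cdt1, activated by Cdc45 and the GINS complex, and followed by polymerases that are held on DNA by the clamp protein PCNA. Later, cyclin A and cyclin B with Cdk1 drive mitosis, and the genes of this phase are known for CCAAT boxes and for the cell cycle genes homology region (CHR), through which the DREAM complex holds them silent in resting cells. Cdkn1a encodes p21, an inhibitor of cyclin-dependent kinases that p53 induces. Marrow progenitors and young macrophages divide in culture under macrophage colony-stimulating factor, and inflammatory stimuli are known to arrest them.

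These sequence classes could be seen in the members' own promoters. RefSeq promoter windows (build GRCm38.p6, 250 bases before to 50 after the annotated start) were found for 40 of the 50 measured members, 48 windows in all, and none for Mcm4, Gins2, Pole, Ccne2, Ccnd1, Ccnd2, Ccna2, Aurkb, Tpx2 and Smc4. An E2F motif, searched as TTTCCCGC, TTTCGCGC, TTTGGCGC or TTTGCCGC on both strands, occurred in 10 of 25 windows of G1/S replication genes, 1 of 17 of G2/M mitotic genes and 0 of 6 of G1 regulators, against 2.26% of all 32851 windows. The CHR motif, searched as TTTGAA or TTCGAA on both strands, occurred in 13 of 17 windows of G2/M mitotic genes and 5 of 25 of G1/S replication genes, against 19.2% of all windows. A CCAAT box (CCAAT on both strands) occurred in 15 of 17 and 15 of 25 windows, against 37.4% of all. All 13 G2/M windows with a CHR motif also held a CCAAT box, a pair found in 7.52% of all windows. Among the 10331 windows of genes in the count table, 3.85% held an E2F motif and 13.4% a CHR motif. A CCAAT box was in 37.2% of those windows, and the pair in 5.29%. A match says only that the letters are in the window, and some genes have more than 1 window.

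The 160 bases before the start are shown for 2 helicase genes, Mcm6 and Mcm5, and for 4 mitotic genes, Cdk1, Kif11, Top2a and Mki67, because they set the E2F class beside the CHR class and because Mcm5 and Kif11 are the G1/S and G2/M members with the smallest p-values below. Capitals mark E2F motifs, CHR motifs and CCAAT boxes on either strand. In Mcm6 and Mcm5 an E2F match on one strand overlaps a second match on the other. The Mcm6 bases are chr1:128359706-128359865 (minus strand), those of Mcm5 chr8:75109349-75109508 (plus strand) and those of Cdk1 chr10:69352913-69353072 (minus strand). Kif11 is shown for chr19:37376222-37376381 (plus strand), Top2a for chr11:99024190-99024349 (minus strand) and Mki67 for chr7:135716380-135716539 (minus strand). The last bases of the window, after the start, were found in annotated transcripts of Cdk1, Kif11, Top2a and Mki67. For Mcm6 and Mcm5 they were found on neither strand. The Mcm6 gene of the count table starts at chr1:128359656, downstream of the RefSeq start used here.
Mcm6: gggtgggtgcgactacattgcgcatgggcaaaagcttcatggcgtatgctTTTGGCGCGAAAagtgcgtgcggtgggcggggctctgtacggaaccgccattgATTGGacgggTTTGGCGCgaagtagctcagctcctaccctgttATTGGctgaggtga
Mcm5: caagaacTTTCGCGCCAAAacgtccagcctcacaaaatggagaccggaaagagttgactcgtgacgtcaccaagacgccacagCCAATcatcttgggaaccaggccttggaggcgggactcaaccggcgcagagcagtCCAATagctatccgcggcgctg
Cdk1: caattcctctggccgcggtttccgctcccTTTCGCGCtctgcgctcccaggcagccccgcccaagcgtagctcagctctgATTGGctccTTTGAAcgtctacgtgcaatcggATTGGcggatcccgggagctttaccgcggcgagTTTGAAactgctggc
Kif11: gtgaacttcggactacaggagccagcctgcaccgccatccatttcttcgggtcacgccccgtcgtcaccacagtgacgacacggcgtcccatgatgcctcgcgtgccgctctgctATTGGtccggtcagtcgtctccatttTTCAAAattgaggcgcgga
Top2a: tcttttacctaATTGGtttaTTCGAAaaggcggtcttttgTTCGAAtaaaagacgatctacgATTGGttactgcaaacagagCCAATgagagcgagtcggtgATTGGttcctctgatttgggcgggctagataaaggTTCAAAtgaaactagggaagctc
Mki67: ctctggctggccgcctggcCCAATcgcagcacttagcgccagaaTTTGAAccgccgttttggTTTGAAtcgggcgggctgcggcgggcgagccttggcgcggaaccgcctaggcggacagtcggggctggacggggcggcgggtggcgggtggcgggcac
The Mcm sequences held E2F motifs and CCAAT boxes and no CHR motif, the Kif11, Top2a and Mki67 sequences CHR motifs with CCAAT boxes and no E2F motif, and Cdk1 held all of these elements.

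Libraries held between 11648710 and 16224818 counts, and values per library are given as counts per 1000000 counts (CPM) scaled with edgeR's trimmed mean of M values (TMM), a size factor, in the order of libraries 1 to 3 and with the controls before the knockouts unless stated. The transcript of the targeted gene lay at 24.1, 20.9 and 23.4 CPM in the controls against 13.2, 13.6 and 18.3 CPM in the knockout libraries, so that Dhps was lower in each knockout library (log2 fold change -0.59, SE 0.14, adjusted p = 0.214 in edgeR's quasi-likelihood test) without passing the threshold over all genes. The labels do not say which exons were deleted, and reads from other exons would be counted. Of 10 macrophage markers all were in the table and 1, Lyz2, was called lower (log2 fold change -1.04). It was the only gene called lower, 0.00948% of all genes. The sum of these markers, mostly Lyz2, ran from 22040.0 to 24700.0 CPM in control and from 13010.0 to 15250.0 CPM in knockout libraries. The median log2 fold change of the 10 markers was -0.061, so that the lower sum follows Lyz2 and not the markers in general. The list members together took up between 0.175% and 0.180% of the counts of control libraries and between 0.185% and 0.196% of those of knockout libraries. Cdkn1a made up much of that difference, at a mean of 595 and 678 CPM. G1/S replication genes summed to 496 to 515 CPM in the controls and 469.5 to 500.3 CPM in the knockouts, which overlapped. G2/M mitotic genes summed to 320.5 to 331.8 CPM in the controls and 332.3 to 352.7 CPM in the knockouts, without overlap. Most of the G1/S sum was Pcna (means of 303 and 295 CPM) and most of the G2/M sum was Mki67 (185 and 197 CPM).

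No cell cycle or replication gene differed between knockout and control past the threshold of an adjusted p under 0.05 in edgeR's quasi-likelihood test, with Benjamini-Hochberg adjustment across the 10551 genes of the table. The count was 0 of 50 members, against 0.104% of all genes tested (0.0948% higher and 0.00948% lower), and it was also 0 with DESeq2, with limma-voom and when any 1 of the 6 libraries was dropped. At an unadjusted p under 0.05 there were 4 members, Ccnd3, Cdkn1a and Kif11 on the higher side and Mcm5 on the lower side, against 6.48% of all genes (3.84% higher and 2.64% lower). The groups did not overlap for 7 of the 50 members, against 11.2% of all genes (5.73% higher and 5.45% lower): the knockout libraries were higher for 6 (Cdkn1a, Ccnd3, Gins2, Rrm2, Kif11 and Aurkb) and lower for 1 (Mcm5). Log2 fold changes lay between -0.67 and 0.56, and 27 were above 0 and 23 below.

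The precision set how much could have been seen. The 95% interval of the fold change lay within 1.5-fold either way for 26 of the 50 members, within 2-fold for 44 and within 3-fold for all 50. Members were low compared with the table as a whole, with a median of 5.96 CPM against 19.5 CPM for all genes, and the median standard error (SE) of their log2 fold changes was 0.19 against 0.13. The SE ran from 0.085 for Mki67 to 0.40 for Prim1, a primase subunit with 152 counts over all libraries. 46 members exceeded 1 CPM in all 6 libraries, Cdc45, Rfc4, Prim1 and Aurkb in fewer, and 0 stood above that floor in the libraries of 1 group alone.

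**Figure D1:**
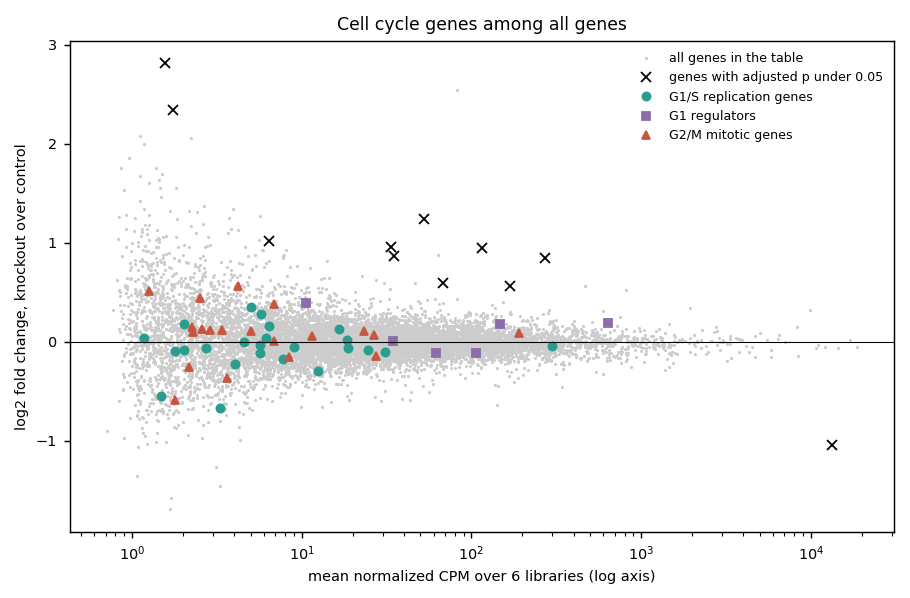
Log2 fold change (knockout over control) against mean normalized CPM on a log axis for all 10551 genes (grey), the 11 genes with an adjusted p under 0.05 (crosses) and the 50 members by role (coloured symbols). The members lie inside the grey cloud, between -0.67 and 0.56, and none is marked with a cross.

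Levels between genes were compared per length, as normalized CPM per kilobase of exon, averaged over the 6 libraries. Cdkn1a (314) and Pcna (237) stood far above the rest, at percentiles 98.0 and 97.1 of all genes. Next came the G1 regulators Cdk6 (43.0), Ccnd2 (25.7) and Cdk4 (25.5), then the proliferation marker Mki67 (19.0) and Ccnd1 (16.2). By role, the median level was 25.6 CPM per kilobase for G1 regulators, 2.33 for G1/S replication genes and 1.40 for G2/M mitotic genes, against 6.83 for all genes. Mki67 was well above the other mitotic genes: Tpx2 lay at 6.32, Smc4 at 5.68, Top2a at 5.08, Cdk1 at 2.95, Ccnb2 at 2.35, Ccnb1 at 0.986, Birc5 at 0.639 and Bub1 at 0.415 CPM per kilobase. Within the helicase, levels of subunits that act in equal numbers ran from 1.70 for Mcm2 to 10.6 for Mcm6, with Mcm7 at 2.37, Mcm3 at 3.11, Mcm5 at 3.63 and Mcm4 at 4.6. How the reads spread along each transcript was not tested, so these orders depend on the exon lengths of the deposited table.

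**Figure D2:**
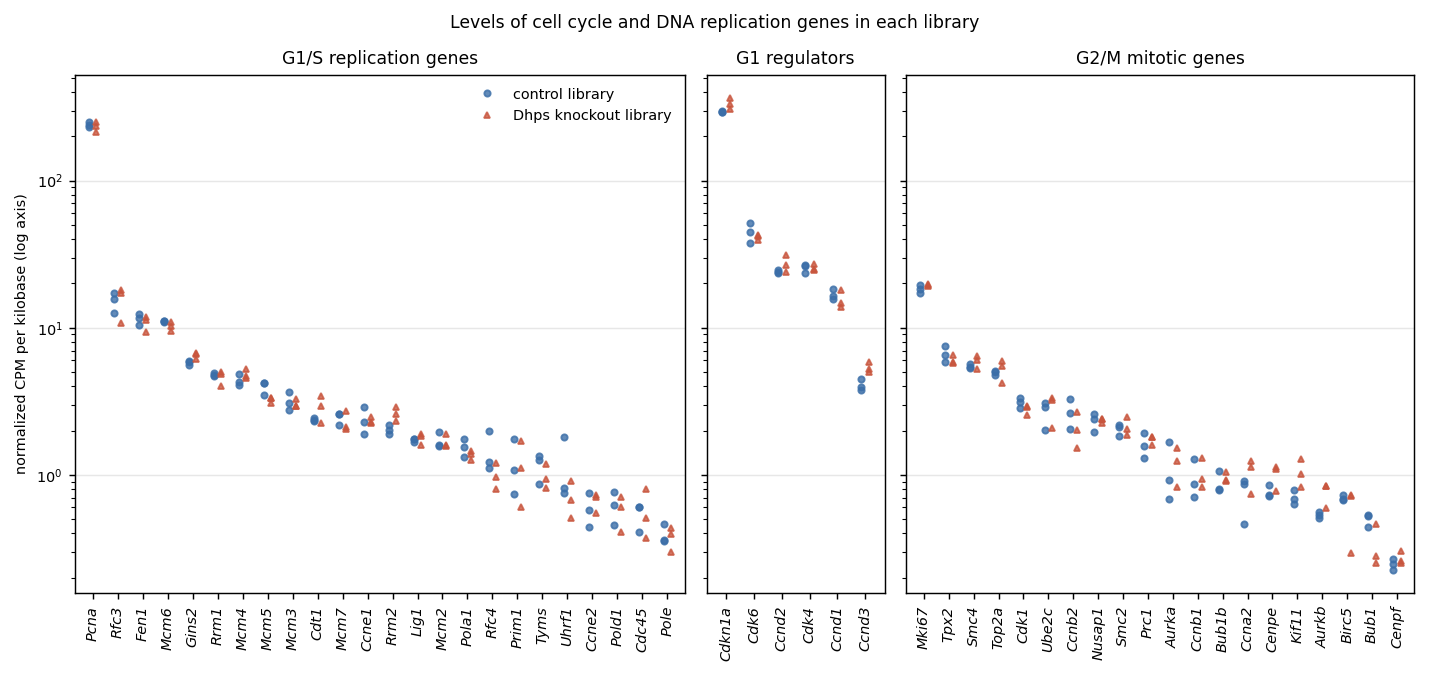
Normalized CPM per kilobase (log axis) of each member in the 3 control libraries (circles) and 3 Dhps knockout libraries (triangles), by role and in order of the mean. Cdkn1a and Pcna lie highest, at means of 314 and 237, and circles and triangles of a gene lie close together beside the spread between genes.

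Among the genes of the replicative helicase and its loading, 9 were measured and 4 had a log2 fold change above 0. Mcm5 (chr8:75109509-75128439 in mm10), a helicase subunit, lay at 14.6, 14.6 and 12.1 CPM in the controls against 11.4, 11.5 and 10.7 CPM in the knockouts. Each knockout library was below each control library, and the difference did not pass (log2 fold change -0.30, SE 0.14, adjusted p = 0.749). It ranged from -0.38 to -0.25 on the log2 scale with 1 library left out. Mcm6 (chr1:128331591-128359656) lay at 32.1, 31.6 and 32.1 CPM in the controls against 31.8, 29.9 and 27.4 CPM in the knockouts, groups that overlapped, and its fold had a 95% interval of 0.799 to 1.08. Mcm2 was at 5.36, 6.62 and 5.30 CPM and 6.40, 5.35 and 5.27 CPM in the same order, with overlapping groups (log2 fold change -0.028). The other subunits Mcm3 (-0.051), Mcm4 (0.13) and Mcm7 (-0.11) had log2 fold changes on both sides of 0, so that Mcm4 was the only measured helicase subunit above 0 and Mcm5 the only one whose interval did not hold 0. Mcm2 was above 0 without control library 2 (0.093) and Mcm3 without control library 1 (0.061). Gins2, a subunit of the GINS complex, was higher in each knockout library (6.33, 6.90 and 6.99 against 6.21, 6.04 and 5.83 CPM) by little and did not pass (log2 fold change 0.16, SE 0.18, adjusted p = 0.939). Cdt1, which loads the helicase, lay at 5.14, 5.08 and 5.30 CPM in the controls against 7.5, 6.43 and 4.97 CPM in the knockouts. Knockout library 3 was below all control libraries for Cdt1 and the other knockout libraries were above them (log2 fold change 0.28, 0.14 to 0.43 with 1 library left out). Cdc45 was near the floor of the table at a mean of 1.15 and 1.20 CPM, and the 95% interval of its fold was wide, 0.577 to 1.84.

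Pcna (chr2:132249286-132253180), the sliding clamp, was the most deeply counted replication gene, with 25339 counts. It lay at 293, 299.5 and 316 CPM in the controls against 314, 271 and 298 CPM in the knockouts, with overlapping groups and a narrow interval of the fold of 0.858 to 1.11 (log2 fold change -0.039, SE 0.087, adjusted p = 0.983). Subunits of the clamp loader lay on either side of 0: Rfc3 had a log2 fold change of 0.017 and Rfc4 of -0.55. Rfc3 lay at 15.3, 19.1 and 21.0 CPM in the controls against 13, 20.8 and 22.1 CPM in the knockouts, with library 1 of each group the lowest. Rfc4 lay at 2.43, 1.35 and 1.48 CPM and 1.17, 1.47 and 0.981 CPM, where control library 1 was the highest and the groups overlapped (adjusted p = 0.873 in edgeR's quasi-likelihood test). Without control library 1 its log2 fold change was -0.23. The catalytic polymerase subunits Pola1 (-0.17), Pold1 (-0.079) and Pole (-0.062), the primase Prim1 (-0.096) and the flap nuclease Fen1 (-0.081) had log2 fold changes below 0, and the ligase Lig1 (0.043) one above, all with an interval that held 0. Of the Fen1 exon bases, 85.9% are also exonic in Gm10143 on the other strand in the GENCODE M21 annotation. The use of strand is not given, so whether the Fen1 counts hold reads of Gm10143 or lack reads of shared bases is not known. Smaller shares with a gene on the other strand were found for Prc1 (26.9%), Ccne2 (18.9%), Ccna2 (18.1%), Rfc4 (13.2%) and Gins2 (12.0%), and for Ccnd1 and Ccnd3 as given below. The annotation also names pseudogenes of Pcna, Tyms, Ccnd3, Ccnb1 and Ccnb2.

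For nucleotide supply, Rrm1 and Rrm2 encode the subunits of ribonucleotide reductase and Tyms makes thymidylate. Rrm2, the subunit tied to S phase, lay at 4.14, 4.37 and 4.78 CPM in the controls against 5.64, 6.28 and 5.09 CPM in the knockouts, without overlap, and did not pass (log2 fold change 0.35, SE 0.20, adjusted p = 0.840). Rrm1 (-0.061) and Tyms (-0.23) had log2 fold changes below 0. Uhrf1, which brings the maintenance methyltransferase to newly made DNA, had the lowest log2 fold change of all members, -0.67 (SE 0.33, adjusted p = 0.807 in edgeR's test). It lay at 6.57, 2.76 and 2.96 CPM in the controls against 2.48, 1.86 and 3.31 CPM in the knockouts, and the difference turned on control library 1, which stood well above the other 5 libraries. Without that library the log2 fold change was -0.15. The cyclin E genes, which start S phase with Cdk2, were low: Ccne1 lay at 4.5, 3.73 and 5.65 CPM in the controls against 4.81, 4.42 and 4.47 CPM in the knockouts, and Ccne2 at 1.43, 1.86 and 2.44 CPM and 2.27, 1.78 and 2.33 CPM. Both groups overlapped for each gene, and the interval of the fold was 0.722 to 1.37 for Ccne1 and 0.716 to 1.78 for Ccne2. In all, 8 of 24 G1/S replication genes had a log2 fold change above 0 and 16 below, none past the threshold.

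The G1 regulators were the most highly expressed role, with an SE of at most 0.15 on the log2 scale. Cdkn1a (chr17:29090986-29100722), the p21 gene, lay at 602, 590.4 and 594 CPM in the controls against 738, 670.1 and 627 CPM in the knockouts. The controls lay close together (SD 6.06 CPM, n = 3) and all 3 knockout libraries were higher, by a mean fold of 1.14 with a 95% interval of 1.0 to 1.29, and the difference did not pass (log2 fold change 0.19, SE 0.086, adjusted p = 0.749). With 1 library left out it ranged from 0.13 to 0.25. Ccnd3 (chr17:47505051-47599688), a D cyclin, had the smallest p of all members. It lay at 10.1, 8.49 and 8.96 CPM in the controls against 13.3, 11.2 and 11.8 CPM in the knockouts, with no overlap (log2 fold change 0.40, SE 0.15, adjusted p = 0.649, interval of the fold 1.06 to 1.64). The lowest adjusted p it reached in any alternative was 0.401, without control library 1. In the GENCODE annotation, 15.8% of its exon bases are shared with Bysl on the other strand.

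The other D cyclins had fitted changes on either side of 0. Ccnd2 lay at 136, 139 and 143 CPM in the controls against 139, 153 and 181 CPM in the knockouts, where knockout library 3 was the highest and the groups overlapped (log2 fold change 0.18, SE 0.10). Ccnd1, the D cyclin that growth factors induce, lay at 69.9, 62.7 and 59.7 CPM and 52.2, 56.2 and 68.8 CPM (log2 fold change -0.12, SE 0.11), also with overlap. 29.0% of the Ccnd1 exon bases are shared with a gene on the other strand. Per length, Ccnd2 was above Ccnd1 and Ccnd3 in every library. The kinases that these cyclins bind did not pass either. Cdk4 lay at 35.8, 35.3 and 31.6 CPM in the controls against 33.6, 36.8 and 33.3 CPM in the knockouts, with an interval of the fold of 0.868 to 1.17. Cdk6 lay at 111, 127 and 93.4 CPM and 105, 105 and 97.4 CPM, with an interval of 0.791 to 1.08, and its control libraries spread more widely than its knockout libraries (log2 fold change -0.11, 0.0058 without control library 2).

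Of the 20 measured G2/M mitotic genes, 15 had a log2 fold change above 0 and 5 below, and 0 passed. Mki67 (chr7:135689788-135716379), which encodes the Ki-67 protein that coats mitotic chromosomes, lay at 185, 174 and 196 CPM in the controls against 194, 201 and 196 CPM in the knockouts. The groups overlapped, and the interval of the fold was 0.942 to 1.21, with the smallest SE of the members on the log2 scale (log2 fold change 0.093, SE 0.085, adjusted p = 0.911). Top2a, the topoisomerase that untangles sister chromosomes, lay at 26.3, 26.4 and 25.0 CPM and 21.8, 28.7 and 31.1 CPM, with knockout library 1 below all controls and the others above them. The condensin subunits Smc2 (0.058) and Smc4 (0.11) had log2 fold changes near those of Mki67 and Top2a, so that all 4 genes of chromosome structure were above 0 by at most 0.11.

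The cyclins and the kinase of mitotic entry had fitted changes on both sides of 0, none past the threshold. Cdk1, the mitotic kinase, lay at 9.50, 8.94 and 8.17 CPM in the controls against 8.32, 8.45 and 7.30 CPM in the knockouts (log2 fold change -0.15, SE 0.16, adjusted p = 0.938). Ccna2, cyclin A, lay at 2.57, 2.44 and 1.30 CPM and 3.51, 3.18 and 2.08 CPM, and its groups overlapped (log2 fold change 0.44, SE 0.32, 0.21 without control library 3). Ccnb1 lay at 1.64, 2.96 and 2.00 CPM and 1.93, 2.17 and 3.0 CPM (log2 fold change 0.10, SE 0.31), and its sign changed without knockout library 3 (-0.11). Its partner cyclin B gene Ccnb2 had a log2 fold change of -0.36, from 3.14, 4.05 and 5.04 CPM in the controls against 3.10, 4.11 and 2.33 CPM in the knockouts (SE 0.27, -0.58 to -0.17 with 1 library left out). Both intervals of the cyclin B genes held 0. Of the Aurora kinase genes, Aurkb was higher in each knockout library, at 1.65, 1.16 and 1.66 against 1.0, 1.09 and 1.04 CPM, and rested on 109 counts in all (log2 fold change 0.51, SE 0.35, adjusted p = 0.876). Aurka (log2 fold change 0.15) and Birc5 (-0.25), the survivin gene whose protein sits with Aurora B, overlapped between the groups. Birc5 lay at 2.5, 2.31 and 2.35 CPM in the controls against 2.48, 1.01 and 2.45 CPM in the knockouts, where knockout library 2 was the lowest of the 6, and without that library its log2 fold change was 0.045.

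Kif11 (chr19:37376403-37421859), the kinesin that pushes spindle poles apart, had the largest log2 fold change of the members. It lay at 3.07, 3.79 and 3.31 CPM in the controls against 4.88, 3.95 and 6.13 CPM in the knockouts, with all knockout libraries above all controls, and did not pass (log2 fold change 0.56, SE 0.23, adjusted p = 0.699, 0.38 to 0.70 with 1 library left out). Cenpe, a kinetochore motor, lay at 6.64, 5.72 and 5.57 CPM and 6.05, 8.52 and 8.89 CPM, with knockout library 1 inside the range of the controls (log2 fold change 0.39, SE 0.19). Bub1, a kinase of the spindle checkpoint, was on the other side of 0, at 1.93, 2.31 and 2.26 CPM in the controls against 1.99, 1.08 and 1.23 CPM in the knockouts (log2 fold change -0.59, SE 0.33), while its relative Bub1b had 0.11. Tpx2, which nucleates spindle microtubules, lay at 32.6, 28.4 and 25.6 CPM and 25.1, 28.3 and 25.4 CPM, with overlap (log2 fold change -0.14, SE 0.12). The remaining spindle and kinetochore genes Cenpf, Nusap1 and Prc1 and the ubiquitin-conjugating enzyme gene Ube2c had log2 fold changes from 0.0073 (Nusap1) to 0.13 (Ube2c), each with an interval that held 0.

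**Figure D3:**
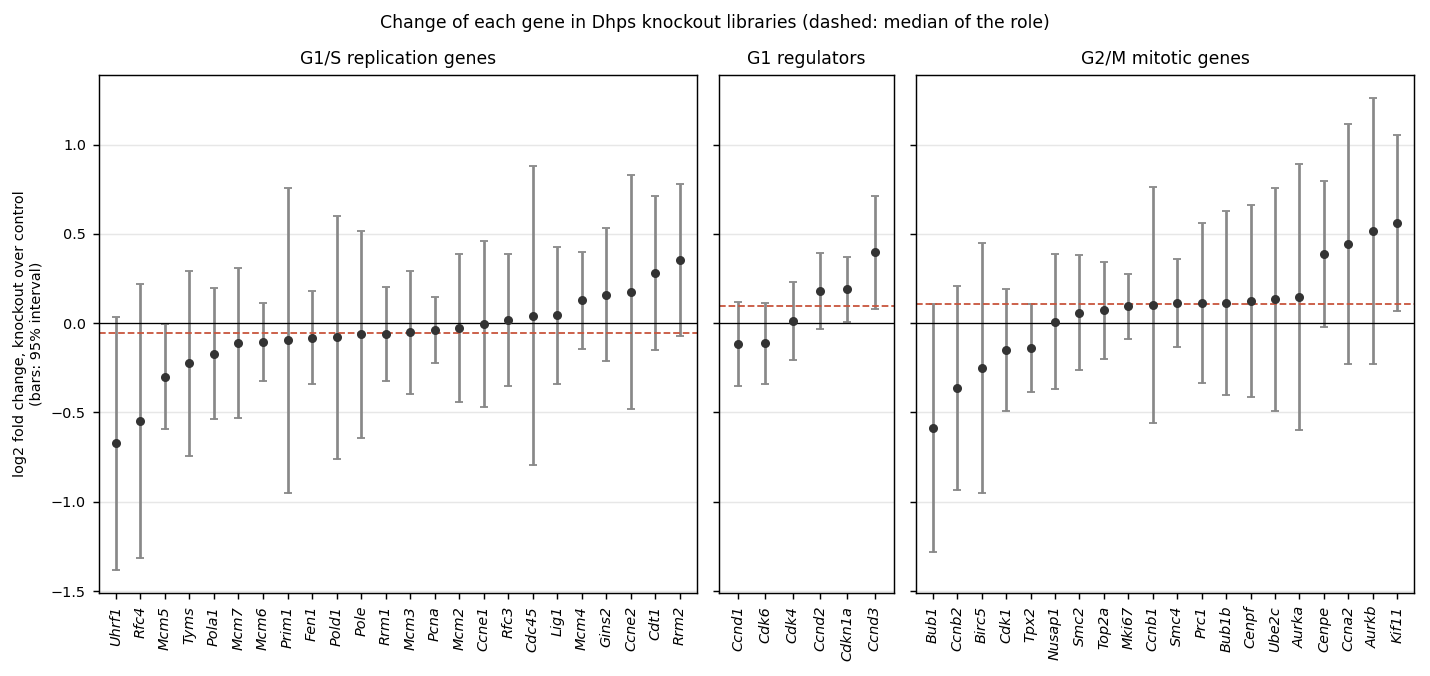
Log2 fold change of each member (points, knockout over control) with its 95% interval (bars), by role, and the median of the role (dashed line). The bars cross 0 for all members but Mcm5, Ccnd3, Cdkn1a and Kif11, and the dashed lines lie at -0.056, 0.095 and 0.11 for G1/S replication genes, G1 regulators and G2/M mitotic genes.

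Set beside each other, for G1/S replication genes the median log2 fold change was -0.056 and for G2/M mitotic genes 0.11, against -0.0044 over all genes, with 33.3% and 75.0% of their members above 0 against 48.7% of all genes. These are descriptions of lists whose members share libraries, and no test was made of the difference. Medians were also taken in each library, of the log2 differences of a list's genes from their control means. These per-library medians need not average to the median of the fitted log2 fold changes. For G1/S replication genes they were -0.0015, -0.014 and 0.010 in the control and 0.049, -0.058 and -0.023 in the knockout libraries, so that knockout library 1 was above and knockout libraries 2 and 3 below the controls. For G2/M mitotic genes they were 0.013, 0.039 and -0.040 and 0.052, 0.044 and 0.12, where all knockout libraries were above all controls, knockout library 3 by the most. The G2/M value minus the G1/S value was 0.015, 0.053 and -0.051 in control and 0.0022, 0.10 and 0.14 in knockout libraries, and knockout library 1 lay within the range of the controls. Leaving out control library 1 gave a G2/M median of 0.062, leaving out control library 3 gave 0.060 and leaving out knockout library 3 gave 0.065, and the G1/S median was -0.033 with no size factors. G1 regulators had a median of 0.095, with 0.041, -0.0084 and -0.066 in control and -0.014, 0.12 and 0.090 in knockout libraries, which overlapped.

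**Figure D4:**
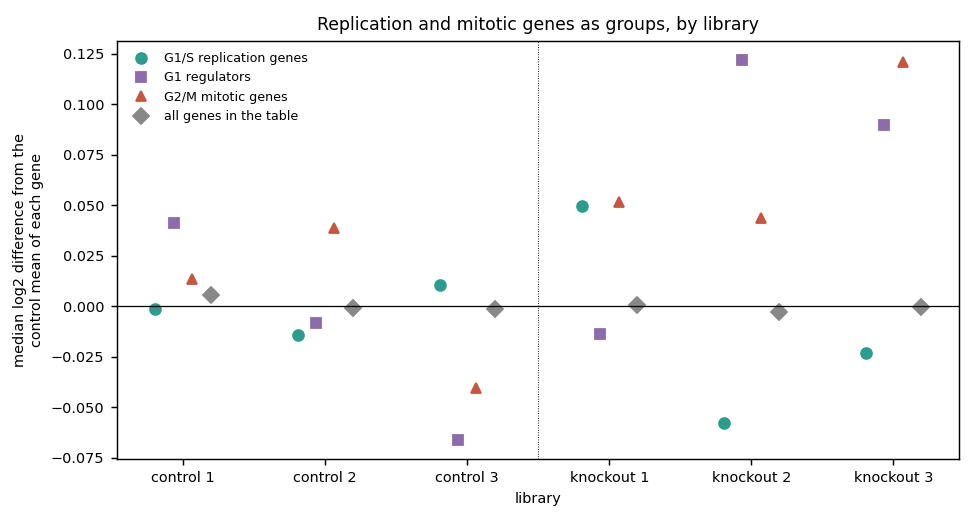
Median log2 difference from the control mean of each gene, in each of the 6 libraries, for the 3 roles and for all genes in the table. The medians of all genes stay close to 0, and those of G2/M mitotic genes reach 0.12 in knockout library 3, against -0.040 to 0.039 in the controls.

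By promoter class, the 8 members whose windows held an E2F and no CHR motif, among them Mcm5 and Mcm6, had a median log2 fold change at -0.091, with 2 above 0. The 14 with a CHR and no E2F motif, among them Kif11, Top2a and Mki67, had 0.083, with 10 above 0. The 3 with both, Cdk1, Mcm7 and Rfc3, had -0.11, with 1 above 0. The 15 with neither had -0.0062. These classes largely repeat the roles and are no separate evidence.

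Other genes of the pathway were taken from 5 lists, with 137 of 162 genes in the table. None was called higher or lower by edgeR's quasi-likelihood test, DESeq2 or limma-voom, and 10 had an unadjusted p under 0.05 in edgeR, 4 on the higher and 6 on the lower side, which is 7.30% against 6.48% of all genes. The list of regulators that act above the members held 18 genes: E2F, retinoblastoma and DREAM genes, with Myc and Max. Their median log2 fold change was 0.049. None of them had an unadjusted p under 0.05, and those with the smallest were E2f5 (-0.28), Max (0.15) and Lin9 (-0.29). E2f1, an activator of replication genes, lay at 13.5, 11.3 and 12.4 CPM in the controls against 12.2, 12.4 and 11.5 CPM in the knockouts, and the retinoblastoma gene Rb1 at 32.1, 35.6 and 31.5 CPM and 33.8, 37.7 and 35.4 CPM. The groups of both overlapped.

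Among 18 other regulators of cyclin-dependent kinases (median -0.062), Cdkn2a, an inhibitor locus, stood at -1.36 on the log2 scale (SE 0.47, adjusted p = 0.577 in edgeR's test). It lay at 1.28, 2.31 and 1.04 CPM in the controls against 0.619, 0.232 and 0.920 CPM in the knockouts and is in the table through the control libraries alone, so that it had to be lower in the others. The inhibitor gene Cdkn1c lay at 6.93, 5.66 and 4.78 CPM and 12.3, 6.20 and 7.54 CPM (log2 fold change 0.58, SE 0.24, adjusted p = 0.677). Cks1b, a subunit that binds these kinases, lay at 1.5, 2.76 and 2.78 CPM in the controls against 3.44, 4.11 and 3.68 CPM in the knockouts (log2 fold change 0.67, SE 0.28, adjusted p = 0.701), without overlap. Of 42 further replication genes 15 were above 0 (median -0.045). Tk1, thymidine kinase, lay at 2.57, 4.05 and 3.56 CPM in the controls against 1.58, 1.55 and 2.51 CPM in the knockouts (log2 fold change -0.84, SE 0.30, adjusted p = 0.603). Rpa2, a subunit of the factor that binds single-stranded DNA, lay at 10.3, 11.3 and 12.7 CPM and 8.80, 8.29 and 8.71 CPM (log2 fold change -0.41, SE 0.15, adjusted p = 0.627). The initiation factor gene Mcm10 lay at 4.07, 3.41 and 3.91 CPM and 2.20, 2.94 and 2.82 CPM (log2 fold change -0.51). For Tk1, Rpa2 and Mcm10 each knockout library was below each control library. The groups failed to overlap for 4 of the 42 genes with the knockout lower and 2 with it higher, against 5.45% and 5.73% of all genes.

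The 41 further mitotic genes had a median of 0.0028, with 21 above 0, and so did not repeat the higher median of the G2/M members. Stmn1, which takes microtubules apart, lay at 16.9, 16.8 and 13.7 CPM in the controls against 13.4, 9.99 and 10.8 CPM in the knockouts (log2 fold change -0.47, SE 0.15, adjusted p = 0.495), and the histone variant gene H2afz at 128, 117 and 117 CPM and 86.2, 95 and 111 CPM (log2 fold change -0.31, SE 0.10, adjusted p = 0.518), both lower in each knockout library. The kinetochore gene Ndc80 lay at 2.07, 1.48 and 0.957 CPM and 1.51, 2.71 and 3.74 CPM (log2 fold change 0.81), with overlap. Of 18 genes of the p53 response beside Cdkn1a, 11 were above 0 (median 0.035). Aen, an exonuclease gene that p53 induces, lay at 18.4, 14.2 and 15.9 CPM in the controls against 12.2, 12.1 and 10.5 CPM in the knockouts (log2 fold change -0.48, SE 0.14, adjusted p = 0.414), lower in each, and Zmat3 at 7.71, 8.87 and 6.70 CPM and 11.7, 9.99 and 10.1 CPM (log2 fold change 0.44, SE 0.16, adjusted p = 0.627), higher in each. Plk3 had a log2 fold change of 0.49. Mdm2, the p53 ligase that p53 itself induces, lay at 612, 603 and 588 CPM and 564, 565 and 624 CPM, an interval of the fold of 0.860 to 1.10, with a log2 fold change of -0.041 against 0.19 for Cdkn1a.

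Markers of other cells that marrow cultures can hold were counted beside these values, since precursors in such cultures can divide. Of 14 markers of neutrophils and their precursors, 12 were in the table and 5 were called higher in edgeR's test, against 0.0948% of all genes (10 genes). The summed level of these markers ran from 408 to 513 CPM in control and from 712 to 892 CPM in knockout libraries. Ctsg and Fcnb were not analysed here. Of 9 markers of haematopoietic progenitors 4 were in the table (Kit, Ly6a, Meis1 and Cd48), none called. Their sum ran from 136 to 174 CPM in control and from 138 to 167 CPM in knockout libraries. Cd34, Flt3, Gata2, Myb and Mecom were not in the table, so that this sum is a weak measure of progenitors. The sums of 6 stromal and fibroblast markers, of which 3 were called higher, ran from 11.6 to 14.5 CPM in control and from 19.9 to 25.9 CPM in knockout libraries. Those of 4 mast cell and basophil markers, none called, ran from 13.8 to 16.9 CPM in control and from 17.3 to 25.8 CPM in knockout libraries. The 6 megakaryocyte and platelet markers, none called, summed from 1498 to 1797 CPM in control and from 1269 to 1396 CPM in knockout libraries, a sum that is mostly Pf4 (log2 fold change -0.29). The median log2 fold change of these markers was of the other sign, 0.70, with Ppbp, Itga2b, Tubb1 and Gp9 above 0 and Pf4 and Vwf below. No erythroid marker and 1 of 9 markers of B, T and NK cells (Cd79b) were in the table. The neutrophil, stromal and mast cell sums and the G2/M medians were higher in each knockout library than in each control. For the G2/M medians the gap was small, 0.044 in knockout library 2 against 0.039 in control library 2. The sums of the 4 progenitor markers overlapped, and the megakaryocyte and platelet sums were lower in each knockout library. The per-library medians of the 41 further mitotic genes overlapped between the groups. The part of these cells in the G2/M values was not tested. In bulk RNA, a change in the share of dividing cells and a change in RNA of these genes per cell cannot be told apart.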

How the data were processed

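RNA was sequenced on an Ion Proton instrument from 3 control and 3 Dhps knockout libraries of mouse bone marrow-derived macrophages. The authors deposited one table of raw counts of reads per gene, not normalized, with exon coordinates and another kind of value, a summed exon length in bases, per the file headers, and that deposited length served only to set levels per kilobase. STAR 2.4.2a, featureCounts, Subread 1.5.0, edgeR and mm10 are named in the submitters' processing notes without role or order. The annotation and the use of strand are not given in the sources used here. In all 10551 genes the third highest library exceeded 1 CPM. Every per-sample column was used (0 left out).

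Counts were tested in R 4.3.3 with edgeR 4.0.16 (quasi-likelihood F test, two-sided), with TMM size factors, filterByExpr with a minimum count of 10 (which removed 0 genes), genotype as the only term and Benjamini-Hochberg adjustment over all genes. The SE is the size of the log2 fold change divided by the square root of F, and intervals used 16.6 degrees of freedom. The biological coefficient of variation was 10.7%. Libraries held 11648710 to 16224818 counts. Each pair of libraries differed by more than sampling noise (chi-square per degree of freedom of at least 7.27). Per-library medians used log2 CPM with a prior count of 2.

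Members, lists and tests were chosen with earlier results of these data known. The text gives in every library the 6 members of each role with the smallest p, the 2 highest per kilobase and fixed key genes, and it names the 3 smallest p of each other list. Gins2, E2f1, Rb1 and Mdm2 were added after their values were seen. Alternatives were DESeq2 1.42.0, limma-voom (limma 3.58.1), other or no size factors, other filters, a replicate block, each library left out and an adjusted p under 0.1. Promoters are RefSeq sequences of GRCm38.p6, the mm10 assembly, and exon overlaps come from GENCODE M21. The test was checked on simulated data.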

Additional observations from a re-analysis of the deposited data

How the results depend on the processing

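No member and no gene of the other pathway lists was called under any alternative run, and the lowest adjusted p of a member was 0.401 (Ccnd3, without control library 1). The number of genes called over the whole table was 11, and 22 with DESeq2, 35 with a replicate block, and from 4 (without control library 2) to 19 (without control library 1) with 1 library left out, and it was 7 without control library 3. Median log2 fold changes with 1 library left out ran from -0.077 to -0.038 for G1/S replication genes, from 0.057 to 0.11 for G1 regulators and from 0.060 to 0.12 for G2/M mitotic genes. The G1/S median was -0.033 with no size factors. The cause of these shifts was not tested. The sign of the log2 fold change held in every alternative for 28 of the 50 members. The stricter filter left out 1 member, Cdc45. Low counts limit what the mitotic genes can show: with a mean under 10 CPM the median SE was 0.27, against 0.12 at 10 CPM or more.

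Control and knockout libraries carry the same numbers in their labels, which do not say that a number marks a shared mouse or day. The deviations of same-numbered libraries from their group means had correlations of 0.139, 0.0195 and 0.148 across genes. Differently numbered libraries had correlations from -0.181 to 0.0548, so that numbers 1 and 3 stood above all of these and number 2 did not. Not every library correlated best with its own number, and the numbers were not taken as pairs. With the replicate block, medians were -0.052, 0.093 and 0.11 for G1/S replication genes, G1 regulators and G2/M mitotic genes, 0 members were called, and Dhps passed (adjusted p = 0.033 in edgeR).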
